A study of Homo sapiens with 18 samples.

Results

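The axon guidance ligands and receptors were the genes with symbols of the semaphorin (SEMA3 to SEMA7), plexin, Eph receptor, ephrin, Slit, Robo, netrin and UNC5 families. This symbol rule selected 66 of the 28395 genes in the RNA-seq tables. Of these, 40 reached a normalised count of 10 or more in at least 3 libraries of at least 1 table. Of these, 39 could be tested between B-K562 and V-K562 cells, 38 between G-K562 and V-K562 cells and 40 between G-K562 and B-K562 cells.

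All cells were derivatives of K562, a human leukemia cell line from chronic myelogenous leukemia that grows in suspension and has erythroid features. V-K562 cells carried the empty expression vector and B-K562 cells wtBASP1, while the G-K562 line carried BASP1-G2A, a mutant that cannot be myristoylated at its N-terminus. Each line was a stably transfected and drug-selected population rather than a clone, and all lines, the control included, were kept under G-418. BASP1 is a transcriptional corepressor, and the comparisons asked which genes change with wtBASP1 and whether the change needs the lipid. RNA-seq and ATAC-seq, which marks accessible chromatin by transposase insertion, were each done on 3 biological replicates per line.

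Axon guidance molecules steer growing axons by attraction and repulsion at the cell surface. Class 3 semaphorins are secreted and signal through plexins, often with a neuropilin, whereas most other semaphorins are membrane-bound and bind plexins directly. Slits bind Robo receptors, netrins bind DCC and UNC5 receptors, and ephrins, which are themselves anchored in the membrane, bind Eph receptor tyrosine kinases. The same families act outside the nervous system, in blood vessels, immune cells and tumors.

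RNA values are given as size-factor-normalised counts rounded to whole numbers. V-K562 values are quoted from the table that holds B-K562, and the same libraries read 1.02 times higher in the table that holds G-K562, because the tables were normalised separately. Differences are on the log2(value + 1) scale. A gene was called risen or fallen where limma-trend gave an adjusted p-value no higher than 0.05 and the change was at least 2-fold. ATAC-seq values are summit pileups, the highest number of tags over a called peak in a library. A library without a called peak in a region was set to a floor of 17 tags in the test, which does not show that it had fewer tags there.

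The library sums lay between 32074895 and 33229588 over both tables. BASP1 was at 7, 5 and 7 in the V-K562 libraries, from 6189 up to 6849 with wtBASP1 and from 8124 up to 12538 with BASP1-G2A. All 8 K562 markers were expressed. Their summed value ranged over 122930–138468 in V-K562, 204386–207973 in B-K562 and 68747–74412 in G-K562 libraries. All 8 were higher under 2-fold in B-K562 compared to V-K562 cells. In G-K562 cells 7 were lower, 5 of them at least 2-fold, and TFRC, the transferrin receptor, was higher (0.56). The summed value of 5 neuron markers ranged over 82–95 in V-K562, 3–5 in B-K562 and 1–3 in G-K562 libraries. SYT1 made up nearly all of it in V-K562 libraries, at 88, 81 and 93, and STMN2 was at 0 in every library. Summed values of 4 lymphocyte markers were 543 to 682, 232 to 253 and 272 to 376 in the same order, with MS4A1 at 0 throughout, and those of 4 fibroblast markers were 1509 to 1758, 897 to 1190 and 1165 to 1289. The summed value of 3 epithelial markers was 1390 to 1887, 1495 to 1583 and 1132 to 1382. Of these, KRT5 was at 143 in V-K562 replicate 1, at 0 in the other V-K562 and all B-K562 libraries and at most at 1 in G-K562. The part of these shifts in the changes of guidance genes was not tested.

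The 26 guidance genes below the filter were at 23 or less in every library. They included 10 of the 14 Eph receptors, 6 of the 20 semaphorins, SLIT1, ROBO1, ROBO4, UNC5A, UNC5D and the netrins other than NTN5. NTN1, the ligand of the highly expressed receptor UNC5B, did not exceed 6 in any library. In B-K562 replicate 1, EPHA3 was at 23 and ROBO1 at 20, against at most 2 in the other B-K562 libraries. All 9 plexins passed the filter, against 4 of 14 Eph receptors. Per kilobase of exon, the median V-K562 level of the 39 tested members was 41.5, against 189 over all 14958 genes tested, so that the typical guidance gene was weakly expressed.

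In B-K562 compared to V-K562 cells, 15 of the 39 tested guidance genes fell and 3 rose. The share that fell was 38.5%, where 14.1% of all genes tested fell, and the share that rose was 7.69%, where 6.46% of all genes rose. With no criterion on size, 26 were lower and 6 higher, against 37.2% lower and 38.6% higher over all genes. The median log2 difference was -0.88 over the guidance genes and 0.01 over all genes. EPHA2, EPHB2, ROBO2, SEMA6A, SLIT3 and UNC5C, which fell, and PLXNA4, which rose, passed the filter only through the line in which they were high. These counts are therefore descriptions. Among the 30 with a value of 10 or more in every library, 9 fell and 2 rose, where 10.1% of all such genes fell and 5.86% rose.

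Of 38 guidance genes tested in G-K562 compared to V-K562 cells, 7 rose and 8 fell. The shares were 18.4% and 21.1%, where 8.81% of all genes rose and 10.3% fell. At any size 16 were higher and 15 lower, against 33.5% and 33.3% over all genes, and the median log2 difference was 0.05 against 0.00. EFNA2, which rose, and EPHA2, EPHB2, SLIT2 and UNC5C, which fell, passed the filter only through the line in which they were high. When V-K562 replicate 1 was left out, 5 fell, and when replicate 3 was left out, 4 fell, since the filter then left 34 members to test. It was 8 to 10 when the genes tested with all libraries were kept and any library was left out. Among 32 members with a value of 10 or more in every library, 6 rose and 4 fell, where 6.73% of all such genes rose and 7.35% fell.

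Between the BASP1 lines, 15 of 40 tested members were at least 2-fold higher in G-K562 cells and 5 at least 2-fold lower. These were 37.5% and 12.5% of the members, where 17.4% of all genes rose and 12.5% fell. With no criterion on size, 23 were higher and 10 lower, against 38.1% and 40.5% over all genes. The median log2 difference was 0.73 over the members and -0.02 over all genes. EFNA2, which was higher in G-K562 cells, and PLXNA4, which was lower, passed the filter only through the line in which they were high. These counts are therefore descriptions as well. Among 29 members with a value of 10 or more in every library, 11 rose and 2 fell, where 13% of all such genes rose and 10.8% fell. The comparisons share the V-K562 or B-K562 libraries, so they are not independent, and their values are set side by side for each gene.

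Of the 15 genes that fell in B-K562 cells, 6 also fell in G-K562 cells, namely EPHA2, EPHB2, EPHB6, SEMA4G, SEMA6B and UNC5C. The other 9 did not fall 2-fold in G-K562 cells. Of those, ROBO2, SLIT3, UNC5B and SEMA3F passed the test as higher in G-K562 cells than in the vector control. Between the BASP1 lines, 7 of the 15 were at least 2-fold higher in G-K562 cells and 1, UNC5C, was at least 2-fold lower. The 15 were selected for low values in the same B-K562 libraries, so higher values in G-K562 cells follow in part from the selection. Over all genes, 2110 fell in B-K562 cells, and 655 of the 14754 genes tested in both comparisons fell in both. The other counts were not made over all fallen genes. Falling in B-K562 and rising in G-K562 cells was seen for SEMA3F alone among the 37 members tested in both, where 1.84% of 14754 genes did so. The reverse was seen for SLIT2 alone, where 0.691% of genes did so, and 4.44% of all genes fell in both.

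**Figure D1:**
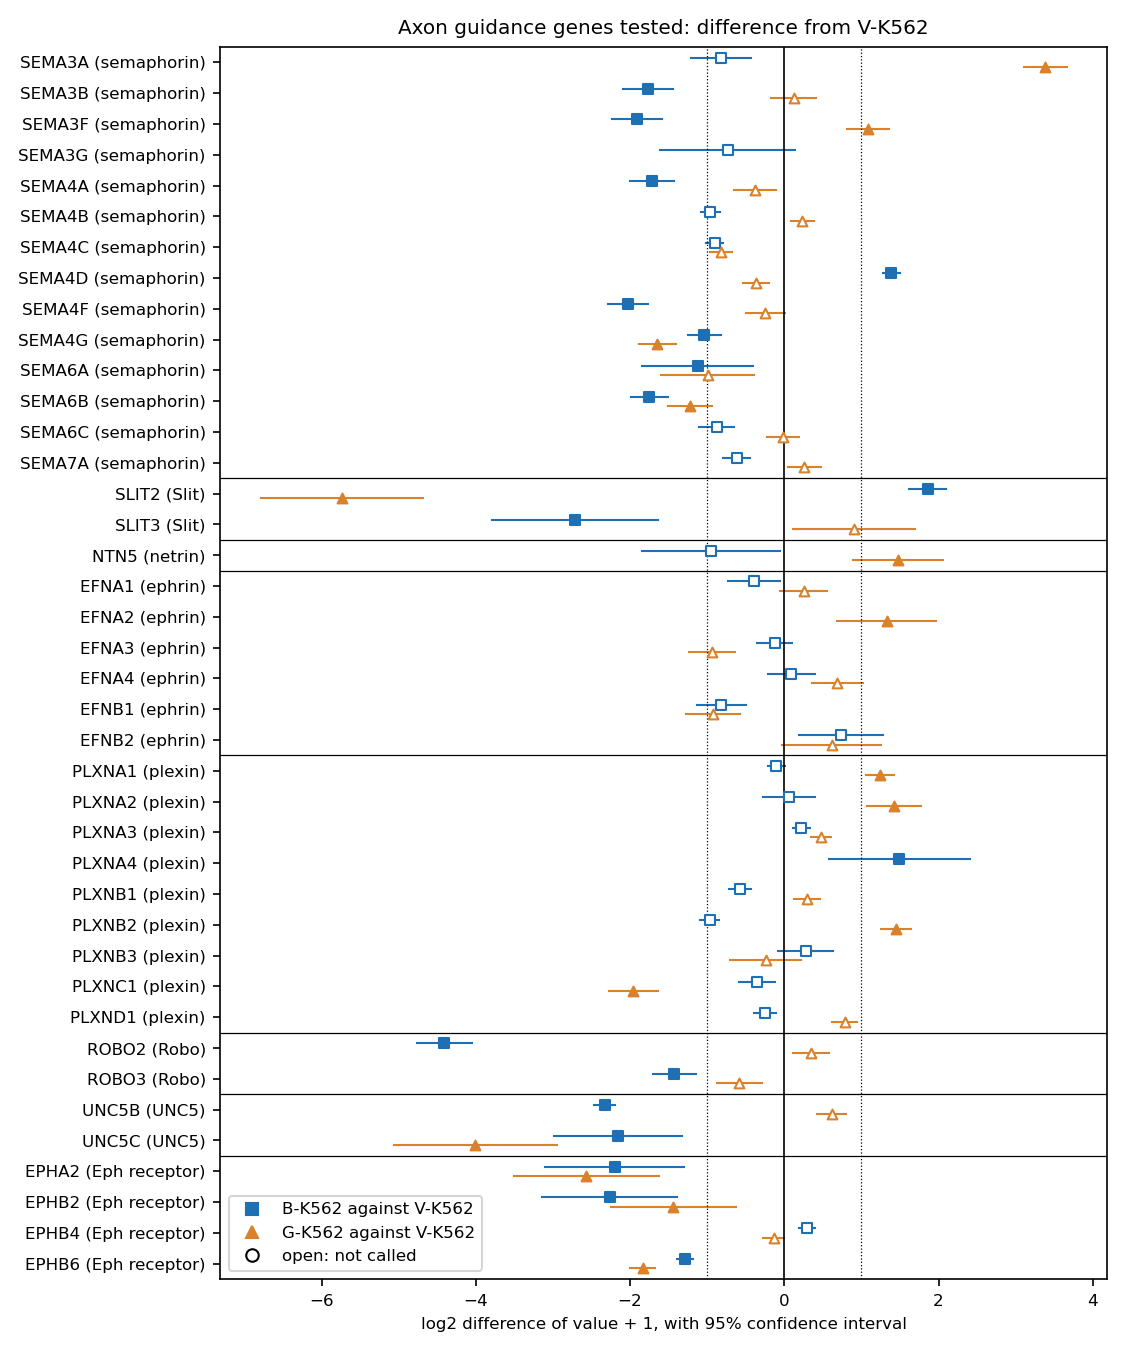
Log2 difference of value + 1 from V-K562 cells (x axis) for the 40 tested guidance genes, grouped by family (y axis), with squares for B-K562, triangles for G-K562 and bars for 95% confidence intervals. Filled symbols passed the adjusted p-value and the 2-fold criterion, open symbols did not, and dotted lines mark 2-fold. Squares lie mostly left of 0 (median -0.88), and triangles lie on both sides (median 0.05), with SLIT2 at 1.86 and -5.74.

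Among the ligands, SLIT2 gave the largest difference, followed by SEMA3A and SLIT3. SLIT2, a secreted repellent that binds Robo receptors, lies on chromosome 4 from 20251925 to 20620561 (GRCh38, plus strand). It was at 136, 145 and 107 in the V-K562 libraries, at 450, 459 and 496 in B-K562 and at 4, 2 and 0 in G-K562 libraries. The lines did not overlap, with B-K562 highest and G-K562 near 0. SLIT2 rose in B-K562 cells (log2 difference 1.86, standard error 0.11, adjusted p = 4.7e-09) and fell in G-K562 cells (-5.74, standard error 0.48, adjusted p = 9.9e-07). The size of the fall rests on the pseudocount, since it was -6.20 with a pseudocount of 0.5 and -4.32 with 5. In G-K562 compared to V-K562 cells SLIT2 passed the filter only through the V-K562 libraries, so the fall follows in part from the filter. Between the BASP1 lines, G-K562 minus B-K562 was -7.60 (standard error 0.40, adjusted p = 4.2e-10). The 22 to 24 tested genes within 5 Mb of SLIT2 had a median log2 difference of -0.05 in B-K562 and -0.07 in G-K562 cells.

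No peak was called at the SLIT2 promoter in any of the 9 ATAC-seq libraries. The only region within 5 kb of the gene was an intronic peak of 17 tags in B-K562 replicate 1. The promoter is shown because the RNA changed the most of all members while its chromatin gave no called peak. The 250 bases before the start (RefSeq, GRCh38.p14, plus strand, chr4:20251655-20251904) were 77.2% G and C. Capitals mark motif matches on either strand. The motifs searched were the core shared by WT1 and EGR factors, written GCGTGGG, and the GC box, written GGGCGG. The AP-1 motif, written TGANTCA, and the GATA motif, written GATAAG, were searched as well. There was 1 match to GCGTGGG and 5 to GGGCGG.
SLIT2 promoter: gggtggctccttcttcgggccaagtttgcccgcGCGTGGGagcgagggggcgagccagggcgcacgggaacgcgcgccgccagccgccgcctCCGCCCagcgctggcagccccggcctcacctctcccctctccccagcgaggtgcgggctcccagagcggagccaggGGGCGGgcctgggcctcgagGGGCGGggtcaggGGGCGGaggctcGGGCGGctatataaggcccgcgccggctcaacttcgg

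In the RefSeq promoter table, 57 of the 66 members were matched. The table held 55 promoters of members that passed the filter, and GCGTGGG was found in 7 of them (12.7%) and in 6.98% of all 35116 promoters. GGGCGG was found in 44 of the 55 (80%) and in 45% of all. TGANTCA was found in 1.82% against 7.71% of all promoters, and GATAAG in 0 of 55 against 6.36% of all. The 35116 promoters were not limited to genes that passed the filter, whereas the 55 were. The part of expression in these differences was not tested. A match describes letters in the window searched and shows no binding.

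SLIT3, a second Slit, was at 25, 12 and 39 in V-K562, at 5, 3 and 1 in B-K562 and at 41, 57 and 36 in G-K562 libraries. It fell in B-K562 cells (-2.71, standard error 0.50, adjusted p = 0.00022), and G-K562 minus B-K562 was 3.61 on the log2 scale (standard error 0.45). SLIT3 passed the filter in B-K562 compared to V-K562 cells only through the V-K562 libraries, so this fall follows in part from the filter. The V-K562 and G-K562 libraries overlapped. The difference between them was 0.90, and it passed 2-fold without V-K562 replicate 3 (1.29) or without G-K562 replicate 3 (1.04). SLIT2 and SLIT3 thus stood in opposite orders across the lines, with SLIT2 highest in B-K562 and SLIT3 lowest there.

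Of the 14 semaphorins tested in B-K562 compared to V-K562 cells, 12 were lower at any size and 7 of these fell 2-fold. Of all genes tested, 37.2% were lower and 14.1% fell. SEMA4D alone was higher. Of 13 tested in G-K562 cells against the vector control, 6 were lower and 4 higher, with 2 in each direction at least 2-fold. Over all genes in that comparison, 33.3% were lower and 33.5% higher, and 10.3% fell and 8.81% rose.

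The secreted class 3 members SEMA3A, SEMA3B and SEMA3F were all lower in B-K562 cells, and all higher with BASP1-G2A than with wtBASP1. SEMA3A, the repellent first known as collapsin, was at 59, 52 and 52 in V-K562, 32, 27 and 32 in B-K562 and 502, 610 and 659 in G-K562 libraries. All G-K562 libraries lay far above the others, and all B-K562 libraries lay below V-K562. The rise in G-K562 cells was 3.39 (standard error 0.13, adjusted p = 1.9e-09), or 10.4-fold, and the difference in B-K562 cells was -0.82 (standard error 0.18, adjusted p = 0.00089), under 2-fold. The 16 tested genes within 5 Mb of SEMA3A had a median log2 difference of -0.20 in G-K562 cells, and the 15 tested in B-K562 cells one of -0.42.

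SEMA3F and SEMA3B lie close together on chromosome 3, at 50155063 to 50189075 and 50267558 to 50277171 (GRCh38), in a segment often lost in carcinomas. SEMA3F was at 206, 214 and 156 in V-K562, 50, 55 and 45 in B-K562 and 417, 382 and 438 in G-K562 libraries. It fell in B-K562 cells (-1.91, standard error 0.15, adjusted p = 5.6e-08) and rose in G-K562 cells (1.08, standard error 0.12, adjusted p = 1.2e-05). Without V-K562 replicate 3 the rise was 0.95, below 2-fold. SEMA3B was at 194, 142 and 189 in V-K562 and 47, 55 and 49 in B-K562 libraries, a difference of -1.77 (standard error 0.15). The G-K562 libraries, at 202, 186 and 189, overlapped those of V-K562 (0.12, 95% confidence interval -0.17 to 0.41, adjusted p = 0.43). The neighbours thus fell to a similar level in B-K562 cells, and SEMA3F alone exceeded the V-K562 level in G-K562 cells.

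SEMA4D, a membrane-bound semaphorin that binds PLXNB1 and is prominent in immune cells, ran against the rest of its family. It was at 915, 971 and 976 in V-K562, 2465, 2476 and 2542 in B-K562 and 815, 710 and 735 in G-K562 libraries. It rose in B-K562 cells (1.39, standard error 0.05, adjusted p = 5.5e-11), was slightly below the vector control in G-K562 cells (-0.37, standard error 0.07, adjusted p = 0.001), and G-K562 minus B-K562 was -1.75. Of its 7966 exonic bases, 1136 overlap SECISBP2 on the opposite strand. Whether counting used the strand was not given in the sources used here, so reads of the pair may not be separated. The receptor PLXNB1 was lower under 2-fold in B-K562 (-0.58) and higher under 2-fold in G-K562 cells (0.29).

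Among the other membrane-bound semaphorins, SEMA4F showed the largest fall in B-K562 cells. It was at 196, 212 and 225 in V-K562, 48, 54 and 51 in B-K562 and 175, 165 and 203 in G-K562 libraries, a log2 difference of -2.03 (standard error 0.12, adjusted p = 4.6e-09). SEMA4A, an immune cell semaphorin, was at 169, 165 and 193, then 52, 48 and 59, then 125, 156 and 132 in the same order (-1.71 in B-K562 and -0.38 in G-K562 cells). Both were thus lowest in B-K562 cells and changed less than 2-fold in G-K562 cells. SEMA4B was at 1620, 1721 and 1801, then 871, 851 and 920, then 2192, 1971 and 1991, with a difference of -0.96 in B-K562 cells that just missed 2-fold.

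SEMA6B and SEMA4G fell in both lines. SEMA6B was at 313, 333 and 370 in V-K562, 112, 90 and 98 in B-K562 and 158, 122 and 165 in G-K562 libraries (-1.75 and -1.22, standard errors 0.11 and 0.13). SEMA4G was at 404, 413 and 431, then 213, 222 and 175, then 118, 136 and 152 (-1.04 and -1.64). For SEMA4G the lowest line was G-K562, and for SEMA6B it was B-K562. Without B-K562 replicate 3 the fall of SEMA4G in B-K562 cells was -0.93, and 738 of its 4565 exonic bases overlap MRPL43 on the opposite strand. SEMA6A, at 19, 23 and 28, then 11, 15 and 6, then 12, 9 and 13, fell in B-K562 cells (-1.12, standard error 0.33). The difference was -0.99 without V-K562 replicate 3 and -0.80 without B-K562 replicate 3. SEMA6A passed the filter in this comparison only through the V-K562 libraries, so its fall follows in part from the filter.

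SEMA4C, the semaphorin with the highest level per kilobase in V-K562 cells, was lower in both lines under 2-fold (-0.90 and -0.83), at 4406, 4935 and 4918 in V-K562, 2490, 2564 and 2562 in B-K562 and 2857, 2575 and 2744 in G-K562 libraries. SEMA6C and SEMA7A were also lower in B-K562 cells under 2-fold (-0.88 and -0.62). SEMA3G did not pass the test.

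Of 8 ephrins, 6 passed the filter in at least 1 table. Of 5 tested in B-K562 compared to V-K562 cells, none rose or fell 2-fold by limma-trend, where 6.46% of all genes rose and 14.1% fell. At any size 2 (EFNA1 and EFNB1) were lower and 1 (EFNB2) was higher, where 37.2% of all genes were lower and 38.6% higher. EFNB2, the ligand of EPHB4, was at 16, 22 and 13 in V-K562 and 29, 29 and 27 in B-K562 libraries (0.73, standard error 0.25, adjusted p = 0.017). EFNA2 rose in G-K562 cells, from 8, 6 and 10 to 25, 20 and 19 (1.33, standard error 0.29), but it passed the filter only through its high values there, so the rise follows in part from the filter. Over the 6 ephrins tested in G-K562 cells, 2 were higher and 2 lower at any size, with a median of 0.43, where 33.5% of all genes were higher and 33.3% lower. NTN5, the only netrin tested, rose in G-K562 cells from 11, 11 and 17 to 38, 30 and 45 (1.47, standard error 0.26). NTN5 was at 9, 8 and 3 in B-K562 libraries. Its difference from V-K562 cells was -0.95 (adjusted p = 0.052), and it passed without B-K562 replicate 1 (adjusted p = 0.028) or replicate 2 (adjusted p = 0.048). The neighbouring genes EFNA3 and EFNA4 on chromosome 1 went in opposite directions in G-K562 cells, at -0.94 and 0.69.

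**Figure D2:**
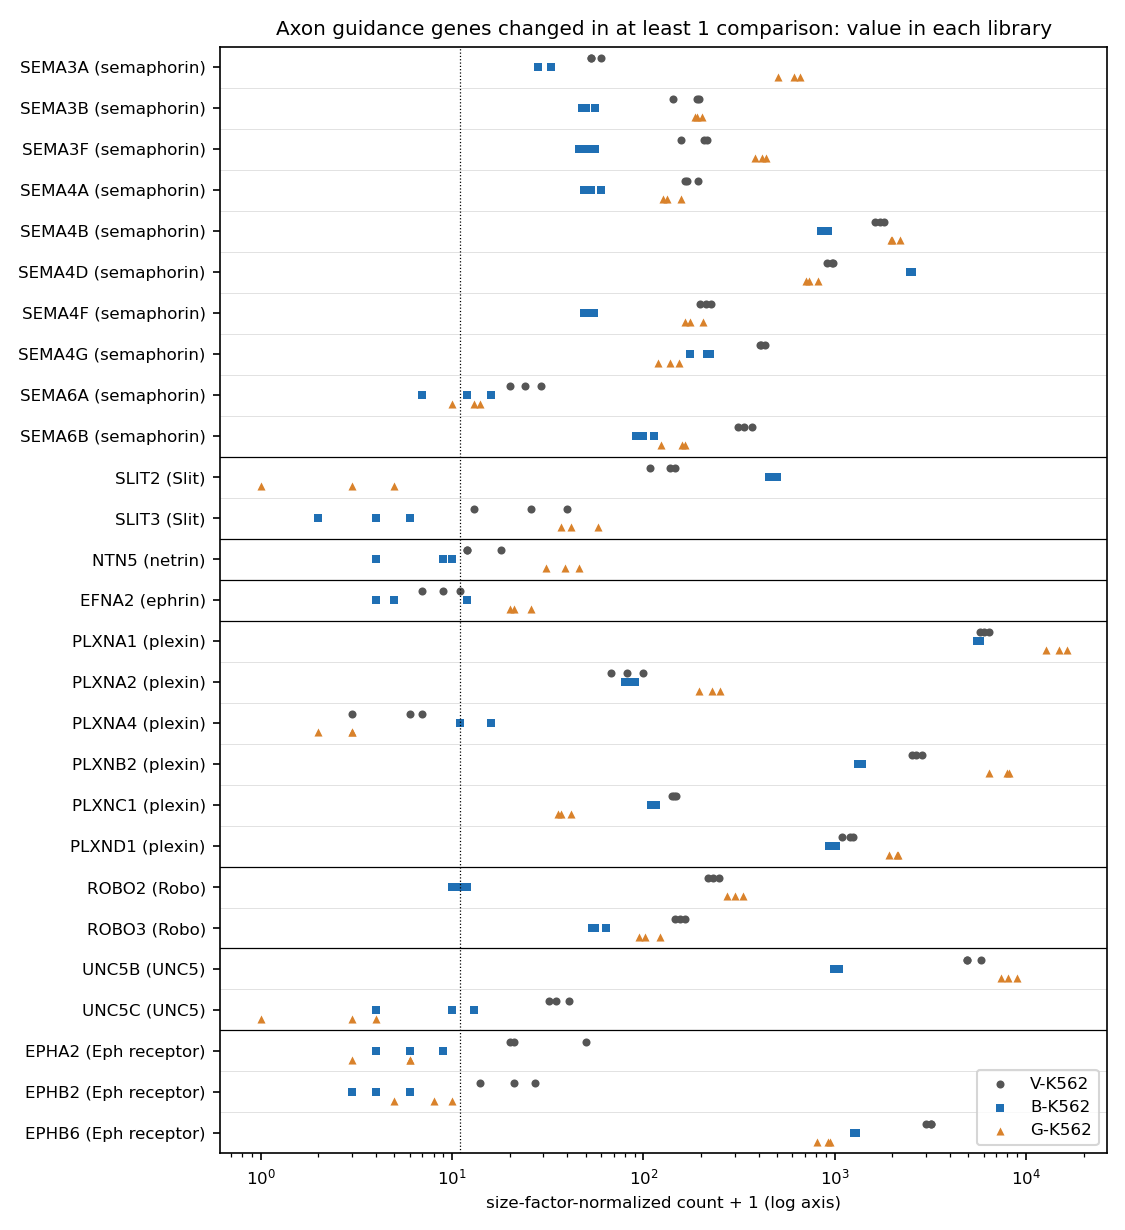
Size-factor-normalised count + 1 on a log axis for the 27 guidance genes that rose or fell in at least 1 comparison, with 1 symbol per library (circles V-K562, squares B-K562, triangles G-K562) and a dotted line at a count of 10. SEMA3A, PLXNA1 and PLXNB2 stand out for high triangles, ROBO2, SLIT3 and UNC5B for low squares, and SLIT2 for triangles between 0 and 4 counts.

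Among the receptors, the plexins rose in G-K562 cells more often than they fell. Of 8 tested, 3 rose and 1 fell, where 8.81% of all genes rose and 10.3% fell. At any size 6 were higher, where 33.5% of all genes were higher. None of 9 tested fell 2-fold in B-K562 cells by limma-trend, 4 were lower at any size, and the median was -0.10. Of all genes in that comparison, 14.1% fell and 37.2% were lower at any size.

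PLXNA1, a receptor for class 3 semaphorins with neuropilins, was the guidance receptor with the highest level per kilobase in G-K562 cells. It was at 6003, 6419 and 5751 in V-K562, 5551, 5595 and 5781 in B-K562 and 16328, 12657 and 14906 in G-K562 libraries. The rise in G-K562 cells was 1.24 (standard error 0.09, adjusted p = 2e-07), and the B-K562 and V-K562 libraries overlapped (-0.10, 95% confidence interval -0.21 to 0.01, adjusted p = 0.078). PLXNA2 also rose in G-K562 cells, from 98, 67 and 81 to 252, 195 and 227 (1.42, standard error 0.16), with 89, 79 and 87 in B-K562 libraries. A region in a PLXNA2 intron, 207296 bp from the start, had peaks of 38 to 68 tags in all V-K562 and B-K562 libraries and none in G-K562 (-1.89, adjusted p = 0.0004), opposite in direction to the RNA.

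PLXNB2, a plexin that binds class 4 semaphorins, differed in both lines in opposite directions. It was at 2523, 2861 and 2645 in V-K562, 1321, 1393 and 1386 in B-K562 and 8181, 6396 and 7916 in G-K562 libraries, with no overlap between lines. The log2 difference was -0.97 in B-K562 (standard error 0.06, adjusted p = 3e-09) and 1.46 in G-K562 cells (standard error 0.09, adjusted p = 8e-08). The first missed 2-fold and passed it without V-K562 replicate 1 or after further trimmed-mean scaling. G-K562 exceeded B-K562 cells by 2.42, or 5.36-fold. The 46 to 49 genes tested within 5 Mb of PLXNB2, near the end of chromosome 22, had a median of 0.04 in B-K562 and 0.25 in G-K562 cells.

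An ATAC-seq region 1062 bp before the PLXNB2 start (chr22:50308449-50308881, GRCh38), chosen after its values were seen, followed the same order. Its peaks had 34, 46 and 28 tags in V-K562 and 59, 48 and 59 in G-K562 libraries, and no B-K562 library had a called peak. It was called closed in B-K562 compared to V-K562 cells (-1.08, adjusted p = 0.0081) and open in G-K562 cells against the B-K562 line (1.53, adjusted p = 0.00032). In both comparisons it was tested only through the line with peaks, so both calls follow in part from the filter on peaks. G-K562 and V-K562 cells did not differ by this test (0.29, adjusted p = 0.32), but with equal tags and no further scaling the difference was 0.63 (adjusted p = 0.049). A region past the end of the gene, 35770 bp from the start, had no called peak in V-K562 and opened in both BASP1 lines. It had 37, 51 and 53 tags in B-K562 and 35, 67 and 47 in G-K562 libraries. Against V-K562 cells it was tested only through the line with peaks. The 201 bases around the summit 1062 bp before the start (hg38, plus strand, chr22:50308604-50308804) are shown because that region followed the order of the RNA. They held none of the motifs.
PLXNB2 region: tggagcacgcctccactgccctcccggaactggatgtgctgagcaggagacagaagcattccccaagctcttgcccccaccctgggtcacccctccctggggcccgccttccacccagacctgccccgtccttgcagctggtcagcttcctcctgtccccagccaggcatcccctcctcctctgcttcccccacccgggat

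PLXNC1, a receptor for SEMA7A, fell in G-K562 cells. It was at 141, 148 and 144 in V-K562, 108, 116 and 115 in B-K562 and 41, 36 and 35 in G-K562 libraries, with 233 of its 10188 exonic bases shared with CEP83 on the opposite strand (-1.96, standard error 0.14, adjusted p = 3.3e-07). SEMA7A, its ligand, was slightly higher there (0.26, adjusted p = 0.035). PLXND1, which binds SEMA3E, was at 1087, 1198 and 1248, then 1018, 1012 and 933, then 2140, 1921 and 2121, and exceeded its B-K562 level in G-K562 cells by 1.04 (0.995 without B-K562 replicate 3). PLXNA4 stayed below 20 in every library, at 5, 6 and 2, then 15, 15 and 10, then 2, 1 and 2, and rose in B-K562 cells (1.49, standard error 0.42, 0.99 with a pseudocount of 5). It passed the filter only through the B-K562 libraries, so this rise follows in part from the filter. In a PLXNA4 intron, a region 158704 bp from the start had summits of 152, 120 and 130 tags in V-K562, 247, 211 and 191 in B-K562 and 79, 28 and 46 in G-K562 libraries (0.53 and -1.84). The order of the lines was the same in RNA and at this region, but 2 other regions in PLXNA4 introns were lower in B-K562 cells. The region 238112 bp from the start had 37, 41 and 24 tags in V-K562 and no called peak in B-K562 libraries (-0.999, adjusted p = 0.013), and the region at 228944 bp had 40, 33 and 35 tags in V-K562 and 22 and 19 in B-K562 replicates 1 and 3 (-0.99, adjusted p = 0.0074). PLXNA3 was higher in both lines under 2-fold, and PLXNB3 did not pass in either.

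The Robo receptors bind Slits. ROBO2 lies on chromosome 3 from 75906675 to 77649964 (GRCh38, plus strand). It was at 218, 229 and 249 in V-K562, 9, 10 and 11 in B-K562 and 301, 272 and 329 in G-K562 libraries. The lines did not overlap, and B-K562 stood far below both others. ROBO2 fell 21.2-fold in B-K562 cells (-4.41, standard error 0.17, adjusted p = 6.6e-11), and was slightly above the vector control in G-K562 cells (0.35, standard error 0.11, adjusted p = 0.012). In B-K562 compared to V-K562 cells it passed the filter only through the V-K562 libraries, so the fall follows in part from the filter. The 13 tested genes within 5 Mb had a median of -0.64 in B-K562 cells, also below 0.

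ROBO2 and its ligand SLIT2 stood in opposite orders. SLIT2 was highest where ROBO2 was lowest, in B-K562 cells, and near 0 where ROBO2 was highest, in G-K562 cells. SLIT3, the other tested Slit, was instead lowest in B-K562 cells, as ROBO2 was. The Slits thus did not share an order relative to ROBO2, and a link between ligand and receptor levels was not tested.

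No ROBO2 region had a called peak in a B-K562 library, whereas 8 regions had a peak in at least 1 G-K562 library. An intronic region 1273277 bp into the gene (chr3:77179744-77180198, GRCh38) had 34, 23 and 25 tags in V-K562 and 46, 43 and 41 in G-K562 libraries. It was lower in B-K562 cells under 2-fold (-0.71, adjusted p = 0.022) and open in G-K562 cells against the B-K562 line (1.19, adjusted p = 0.00052). With the floor at the lowest pileup the difference in B-K562 cells was -1.42, and without any 1 of the B-K562 libraries its adjusted p lay between 0.069 and 0.074. At an internal ROBO2 start listed by RefSeq, a region with 36, 29 and 37 tags was called in G-K562 libraries alone (0.78 compared to V-K562 cells, adjusted p = 0.0027). Both regions were chosen after their values were seen. In these comparisons each was tested only through the line with peaks, so the differences follow in part from the filter on peaks. The 201 bases around the intronic summit (hg38, plus strand, chr3:77179852-77180052) are shown as the ROBO2 region called in all V-K562 and G-K562 libraries, and hold 1 match to GATAAG.
ROBO2 region: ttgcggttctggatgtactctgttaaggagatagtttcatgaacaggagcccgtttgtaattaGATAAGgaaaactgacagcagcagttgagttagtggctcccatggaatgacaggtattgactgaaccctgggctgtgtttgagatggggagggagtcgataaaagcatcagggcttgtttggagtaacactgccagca

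ROBO3, a Robo family receptor that modulates Slit repulsion at the midline, was at 164, 154 and 146 in V-K562, 53, 55 and 63 in B-K562 and 94, 121 and 101 in G-K562 libraries. It fell in B-K562 cells (-1.43, standard error 0.13, adjusted p = 2.6e-07) and was lower under 2-fold in G-K562 cells (-0.58). An intronic ROBO3 region, named after its values were seen, opened in B-K562 cells, from 66, 57 and 42 tags to 113, 115 and 143 (1.02, adjusted p = 0.0078), in the opposite direction to the RNA.

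UNC5B, a netrin receptor that can trigger apoptosis when its ligand is absent, was the most abundant of the genes that fell in B-K562 cells. It lies on chromosome 10 from 71212535 to 71302879 (GRCh38, plus strand). Its values were 4924, 4925 and 5807 in V-K562, 1057, 1056 and 996 in B-K562 and 8020, 7361 and 9003 in G-K562 libraries, with no overlap between lines. It fell 5.02-fold in B-K562 cells (-2.33, standard error 0.06, adjusted p = 5.3e-12) and was 1.53-fold higher in G-K562 cells (0.61, standard error 0.09, adjusted p = 6.1e-05). G-K562 exceeded B-K562 cells 7.68-fold. The median of 81 genes within 5 Mb was -0.29 in B-K562 and -0.05 in G-K562 cells.

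The strongest UNC5B region in V-K562 libraries lay in an intron, 53993 bp from the start (chr10:71266255-71266797, GRCh38). Its summits were 182, 127 and 152 tags in V-K562, 33 and 32 tags in B-K562 replicates 2 and 3 with no called peak in replicate 1, and 248, 186 and 224 tags in G-K562 libraries. It was closed in B-K562 cells (-2.61 on the log2 pileup scale, adjusted p = 0.0014) and open in G-K562 cells against the B-K562 line (2.82, adjusted p = 0.00035). G-K562 and V-K562 cells did not differ by this test (0.17, adjusted p = 0.42), but with equal tags and no further scaling the difference was 0.52 (adjusted p = 0.028). Over the alternatives the B-K562 difference lay between -2.84 and -2.32. At the UNC5B start itself, summits were 52, 78 and 101 tags in V-K562, 68, 59 and 76 in B-K562 and 167, 177 and 167 in G-K562 libraries, so the start region did not pass in B-K562 cells (-0.29, adjusted p = 0.38) and was higher in G-K562 cells under 2-fold (0.84).

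Other UNC5B regions differed in direction. Regions 22553 and 34249 bp from the start were lower in B-K562 cells under 2-fold (-0.84 and -0.68, adjusted p = 0.02 and 0.042), as the RNA was, and were also lower in G-K562 cells (-0.49 and -1.23), where the RNA was higher. Against the B-K562 line, the start region opened in G-K562 cells (1.11, adjusted p = 0.00046), and a region at 57897 bp was higher under 2-fold (0.55, adjusted p = 0.04). At 48361 bp, a region called in G-K562 libraries alone, with 38, 49 and 51 tags, opened against that line (1.27) and compared to V-K562 cells (1.20). It was tested only through the G-K562 libraries, so both calls follow in part from the filter on peaks. A region 11257 bp from the start had 80, 81 and 74 tags in V-K562 and 87, 63 and 66 in B-K562 libraries, and closed in G-K562 cells, with 33 and 29 tags in replicates 1 and 3 (-1.89, adjusted p = 0.00065), where the RNA was higher. The 201 bases around the summit at 53993 bp (hg38, plus strand, chr10:71266428-71266628) are shown because this region was lower in B-K562 and not in G-K562 cells, as the RNA was. They are 62.2% G and C and hold 1 match to GGGCGG, read on the minus strand.
UNC5B region: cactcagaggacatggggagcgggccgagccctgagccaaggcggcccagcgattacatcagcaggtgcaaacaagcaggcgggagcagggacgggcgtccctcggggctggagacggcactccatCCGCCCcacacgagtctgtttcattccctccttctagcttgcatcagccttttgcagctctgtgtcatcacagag

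**Figure D3:**
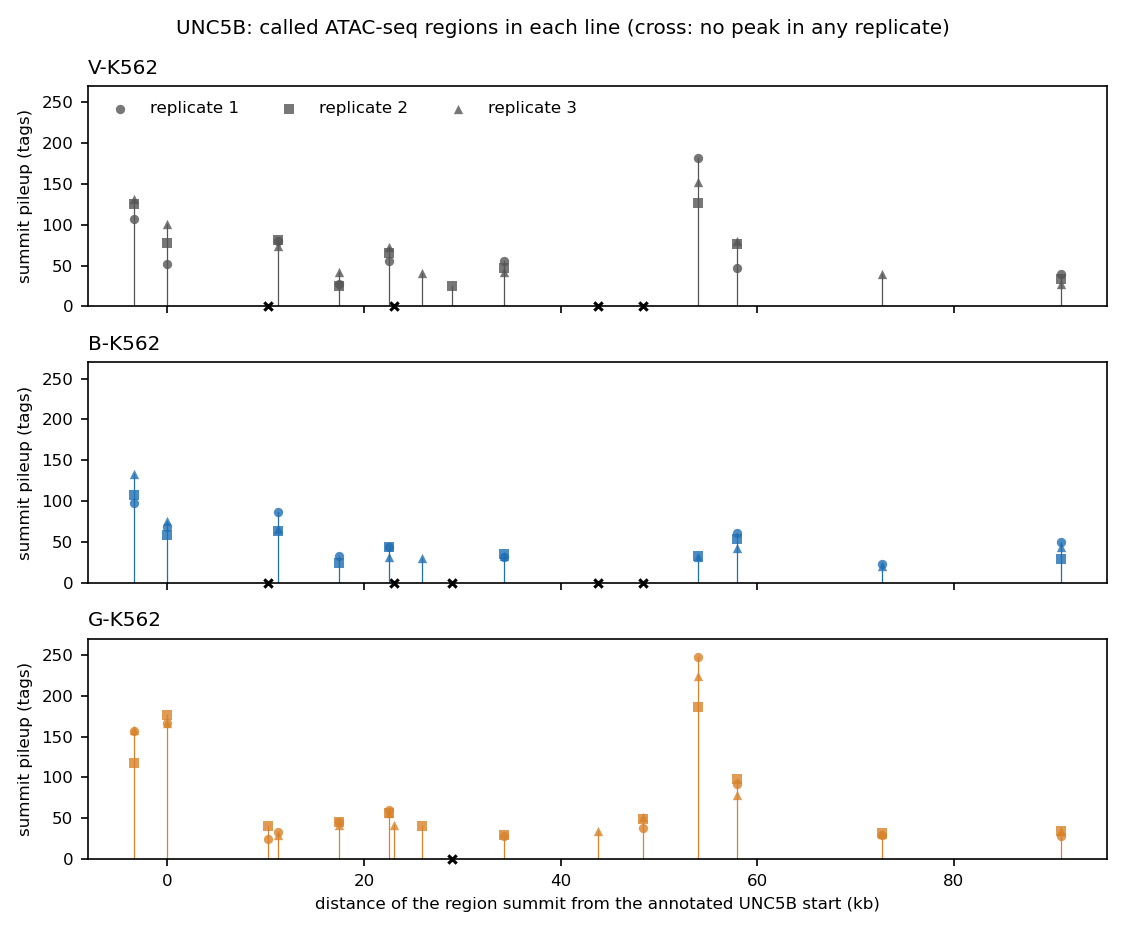
Summit pileup in tags (y axis) of each called region at UNC5B against its distance in kb from the annotated start (x axis), 1 panel per line, with a symbol per replicate and a cross where no replicate had a peak. At 53993 bp the summits are 127 to 182 tags in V-K562, at most 33 in B-K562 and at least 186 in G-K562 libraries, while the region before the start, at -3351 bp, stays above 90 tags in every line.

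UNC5C, another netrin receptor, fell in both lines. It was at 34, 40 and 31 in V-K562, 3, 12 and 9 in B-K562 and 3, 2 and 0 in G-K562 libraries (-2.15 and -4.01, standard errors 0.39 and 0.48). UNC5C passed the filter against V-K562 cells only through the V-K562 libraries, so both falls follow in part from the filter. It was the only member that fell in B-K562 and was lower still in G-K562 cells by at least 2-fold (-1.83, adjusted p = 0.0059, -0.94 with a pseudocount of 5). An intronic UNC5C region closed in G-K562 cells, with 72, 99 and 108 tags in V-K562, 108, 78 and 78 in B-K562 and 29, 25 and 23 in G-K562 libraries (-2.15, adjusted p = 0.00034). In B-K562 cells the region did not pass (-0.23, adjusted p = 0.39) although the RNA fell, whereas a region beside it, with 41, 51 and 34 tags in V-K562 libraries, had no called peak in B-K562 and closed in both lines (-1.31 and -1.06).

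Of the 14 Eph receptors, 4 could be tested. EPHA2, EPHB2 and EPHB6 fell in both lines and EPHB4 did not, where 4.44% of all genes fell in both. EPHB6, an Eph receptor without kinase activity that is expressed in T cells, was at 3001, 3182 and 3194 in V-K562, 1262, 1298 and 1268 in B-K562 and 942, 927 and 803 in G-K562 libraries. It fell in B-K562 (-1.29, standard error 0.05, adjusted p = 6.9e-11) and in G-K562 cells (-1.84, standard error 0.07, adjusted p = 2.9e-09). The region at its start had 100, 82 and 84, then 84, 73 and 71, then 95, 97 and 83 tags and did not pass in either line. The 47 genes tested within 5 Mb of EPHB6 had a median of -0.34 in B-K562 cells.

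EPHA2 was at 49, 19 and 20 in V-K562, 3, 8 and 5 in B-K562 and 5, 5 and 2 in G-K562 libraries (-2.20 and -2.57, standard errors 0.42 and 0.43). V-K562 replicate 1, the library with KRT5, was highest, and without it EPHA2 missed the filter. Kept in the fit without that library, its differences were -1.77 and -2.14 (adjusted p = 0.0023 and 0.0015). EPHB2 was at 13, 20 and 26, then 2, 3 and 5, then 7, 9 and 4 (-2.26 and -1.44). Both genes passed the filter only through the V-K562 libraries.

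EPHB4, the receptor of EFNB2, was the most abundant Eph receptor, at 3398, 3654 and 3505 in V-K562, 4364, 4436 and 4174 in B-K562 and 3494, 3123 and 3160 in G-K562 libraries. It was higher in B-K562 cells (0.30, standard error 0.05, adjusted p = 6.4e-05), while G-K562 and V-K562 libraries overlapped (-0.14, 95% confidence interval -0.27 to -0.00, adjusted p = 0.071). The region over its start had 114, 131 and 93 tags in V-K562, 120, 117 and 119 in B-K562 and 134, 159 and 169 in G-K562 libraries and did not pass in any comparison (-0.06, 0.11 and 0.15). A region past the end of the gene, 25217 bp from the start, did not pass against V-K562 cells either (0.10 and -0.22). A region 1887 bp before the start (chr7:100829221-100829647, GRCh38) had 56, 89 and 49 tags in V-K562 and 120, 134 and 139 in B-K562 libraries, and no G-K562 library had a called peak. It was higher in B-K562 cells under 2-fold (0.90, adjusted p = 0.016) and closed in G-K562 cells (-1.99, adjusted p = 0.00076). Without V-K562 replicate 2 the difference in B-K562 cells was 1.14. In the same gene, an intronic region 1345 bp after the start had no called peak in V-K562 and 79, 62 and 56 tags in G-K562 libraries, and another 23873 bp after it had 90, 97 and 93 tags in G-K562 and a peak in 1 V-K562 library. For G-K562 compared to V-K562 cells, the region at 1345 bp was tested only through G-K562 libraries. The region before the start was tested there only through V-K562 libraries. The 201 bases around the upstream summit (hg38, plus strand, chr7:100829308-100829508), shown as the region with the largest change of all at guidance genes, hold 1 match to GATAAG, read on the minus strand.
EPHB4 region: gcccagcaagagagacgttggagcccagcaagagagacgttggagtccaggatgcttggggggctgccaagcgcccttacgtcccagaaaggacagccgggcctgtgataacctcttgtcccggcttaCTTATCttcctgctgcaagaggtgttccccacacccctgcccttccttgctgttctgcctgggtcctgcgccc

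In all, 288 merged ATAC-seq regions lay within 5 kb of 60 members. Of those tested in B-K562 compared to V-K562 cells, 4 of 162 opened (2.47%, where 1.53% of all regions opened) and 7 closed (4.32%, where 6.15% of all regions closed). Of 168 tested in G-K562 compared to V-K562 cells, 14 opened (8.33%, against 2.87%) and 19 closed (11.3%, against 13.1%). With equal tags per library and no further scaling, 24 opened and 10 closed. No share over all regions is given for that setting, so these counts are not a result about guidance genes. Of 171 tested between the BASP1 lines, 17 opened in G-K562 cells (9.94%, against 5.52%) and 16 closed (9.36%, against 10.9%). When a library was left out, the filter on peaks was applied again, so regions with peaks in G-K562 libraries alone could then not be tested. The lower opened counts follow in part from this and do not show a dependence on each of the G-K562 libraries. Without any 1 of them, 7 opened compared to V-K562 cells (4.61% to 4.67%, where 1.74% to 2.02% of all regions opened), and against the B-K562 line 6, 7 and 5 opened without replicates 1, 2 and 3 (4.11%, 4.76% and 3.42%, where 3.2%, 3.74% and 3.36% of all regions opened). In B-K562 compared to V-K562 cells the opened count was 0 without B-K562 replicate 3 and the closed count was 2 without V-K562 replicate 1 or 3.

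Of the 15 genes that fell in B-K562 cells, 4 had a closed and no opened region, 1 had an opened region and 10 had neither. Over all 2110 genes that fell there, 18.2% had closed regions alone, 1.04% opened regions alone and 80.3% neither. The members had a median of 3 tested regions and all fallen genes a median of 2. None of the 3 that rose had a called region, and 86.3% of all 967 risen genes had none either. Of the 7 that rose in G-K562 cells, 1 had an opened and 1 a closed region, where 13.5% and 11.1% of all risen genes had regions of that kind alone. Of the 8 that fell, 2 had closed regions alone and 1 had both kinds, against 29.9% and 1.46% of all fallen genes. At promoters in the RefSeq table, 23 of 36 expressed members had a called region, against 6 of 21 below the filter. All 3 libraries had a promoter peak for 15 of the 36 in V-K562, 19 in B-K562 and 21 in G-K562 cells. These promoter counts were not made over all promoters, so whether this order is particular to guidance genes was not tested. Mean pileup over all called intervals did not exceed 48.9 tags in any V-K562 library. With wtBASP1 it was at least 58.3 tags, and with BASP1-G2A at least 63.3. Peaks were most numerous in V-K562 libraries, at 53862 or more, against 51199 or fewer in every other library.

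Of the 27 genes called in at least 1 RNA-seq comparison, 11 had a merged region over the annotated start. In B-K562 compared to V-K562 cells, 8 of these regions were tested, PLXND1 opened and 7 did not pass. In G-K562 compared to V-K562 cells, UNC5B and PLXND1 were higher under 2-fold and 6 did not pass. For G-K562 against the B-K562 line, UNC5B opened and 8 did not pass. The PLXND1 start had 27 tags in V-K562 replicate 1 and no called peak in the others, 36, 37 and 64 tags in B-K562 and 42, 45 and 38 in G-K562 libraries (1.004 and 0.79, adjusted p = 0.046 and 0.041), whereas its RNA was lower in B-K562 cells (-0.25). Its opening in B-K562 cells did not pass without V-K562 replicate 2 or 3 or without B-K562 replicate 2 or 3 (adjusted p = 0.062 to 0.13).

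The other regions with the largest changes went with the RNA in some genes and against it in others. An intronic SLIT3 region had 70, 51 and 65 tags in V-K562 and 112, 127 and 119 in B-K562 libraries, where the RNA fell, and no called peak in G-K562 (0.79 and -1.97). A region 2303 bp into SEMA4C opened in G-K562 cells, from 37 and 36 tags in V-K562 replicates 2 and 3 to 144, 124 and 117 (1.85, adjusted p = 0.0037), where the RNA was lower. Its opening in B-K562 cells (1.07, adjusted p = 0.046) was lost without any single library, at 0.69 to 1.27. A region upstream of SEMA4C, at -2881 bp, chosen after its values were seen, had 34, 54 and 61 tags in V-K562 and no called peak in any B-K562 or G-K562 library (-1.53 and -1.62), and the RNA was lower in both. A region past the end of SEMA4C, 12095 bp from the start, had 47, 63 and 61 tags in V-K562, a peak of 56 tags in B-K562 replicate 2 alone and 119, 97 and 89 tags in G-K562 libraries. It opened in G-K562 cells against the B-K562 line (1.80, adjusted p = 0.021), but did not pass without B-K562 replicate 1 (1.505, adjusted p = 0.061) or replicate 3 (1.51, adjusted p = 0.057). An intronic PLXND1 region had 94, 91 and 83 tags in G-K562 and at most 29 elsewhere (1.60 compared to V-K562 cells).

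**Figure D4:**
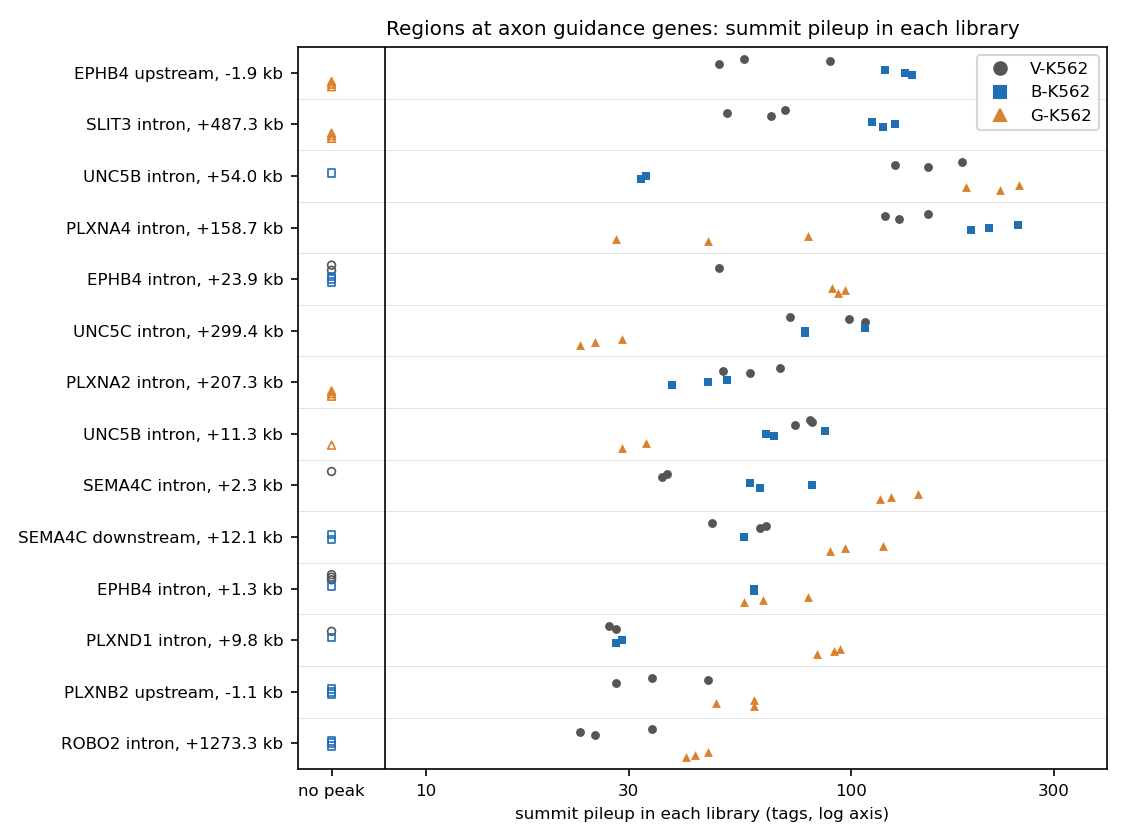
Summit pileup in tags on a log axis for the 12 called regions with the largest log2 difference and for the PLXNB2 and ROBO2 regions, named by gene and distance from the start, with circles for V-K562, squares for B-K562 and triangles for G-K562 libraries. Open symbols left of the vertical line mark libraries without a called peak, as for B-K562 at PLXNB2 and ROBO2 and for G-K562 at the EPHB4 region upstream of the start and the SLIT3 intron.

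Beyond the members, 13 co-receptors and other guidance ligands were examined. In B-K562 compared to V-K562 cells 4 could be tested, and L1CAM and NRCAM, cell adhesion molecules of axons, fell (-1.80 and -1.93), where 14.1% of all genes fell. L1CAM was at 70, 99 and 103 in V-K562, 28, 25 and 22 in B-K562 and 114, 123 and 123 in G-K562 libraries. Of 5 tested in G-K562 cells against the vector control, NRCAM alone fell (-1.40), where 10.3% of all genes fell. Between the BASP1 lines 5 were tested, and NRP1, RGMB and L1CAM were at least 2-fold higher in G-K562 cells, where 17.4% of all genes were. RGMB was at 12, 0 and 0 in B-K562 and at 15, 12 and 15 in G-K562 libraries. Its call thus rests on low values, and B-K562 replicate 1 was at the level of G-K562 replicate 2. NRP1, the co-receptor of SEMA3A, was at 28, 17 and 18, then 14, 17 and 3, then 37, 29 and 32. SEMA3A, NRP1 and PLXNA1 had their highest values in G-K562 cells, with NRP1 under 2-fold above V-K562 cells (0.64). The plexin PLXNA4 instead was highest in B-K562 libraries, at 15, 15 and 10, and was at 2, 1 and 2 in G-K562 libraries. NRP2, the co-receptor of SEMA3F, did not exceed 10. NRCAM and NRP1 were named after their values were seen.

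Of 47 intracellular partners of these receptors, 38 were tested in B-K562 compared to V-K562 cells, 1 rose and 5 fell, with a median of 0.07, where 6.46% of all genes rose and 14.1% fell. Against the vector control, 4 of 38 rose and 2 fell in G-K562 cells, with a median of 0.07, where 8.81% of all genes rose and 10.3% fell. Between the BASP1 lines, 8 of 39 were at least 2-fold higher in G-K562 cells and 2 lower, where 17.4% of all genes were higher and 12.5% lower. ABLIM3, an actin-binding LIM protein, was at 627, 569 and 851 in V-K562, 19, 22 and 23 in B-K562 and 1279, 1145 and 1322 in G-K562 libraries (-4.92 and 0.87, adjusted p = 1.2e-11 and 9.8e-05). This order of the lines was that of ROBO2 and UNC5B. PAK1, a kinase activated by RAC1 and CDC42, was at 1746, 2016 and 1997, then 974, 944 and 990, then 139, 152 and 129 (-0.98 and -3.79). DPYSL2, which relays the SEMA3A signal to microtubules, rose in G-K562 cells, from 58, 50 and 67 to 281, 262 and 349 (2.30, adjusted p = 1.5e-07), as SEMA3A did. RRAS and ENAH fell in B-K562 cells (-1.73 and -1.28) and were higher under 2-fold in G-K562 cells (0.32 and 0.86), NGEF fell in both lines (-2.16 and -2.95), and ABLIM1 and RND3 rose in G-K562 cells (1.24 and 2.94), RND3 with 18, 1 and 3 in V-K562 libraries.

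In bulk RNA, fewer cells expressing a gene and less RNA per cell cannot be told apart. The replicates belong to 1 stably transfected population per line, so the tests measure the spread between replicates and not between transfections.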

How the data were processed

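RNA-seq and ATAC-seq of the 3 lines were analysed, with 3 biological replicates per line and assay. The members and gene lists were chosen with earlier results of these data known. The deposited RNA-seq values, treated as a score because they are not raw, are counts of reads mapped with STAR and assigned to RefSeq genes with Subread, which the authors divided by DESeq2 size factors and rounded, in 2 tables that share the V-K562 libraries, on GRCh38. The raw depth per library is not recoverable from the rounded values. The deposited ATAC-seq files hold a peak signal per library, the pileup at the summit of each MACS2 interval, after the authors had reduced the libraries to equal tags. Reads were mapped with BWA-MEM. The strand setting of counting was not given in the sources used here. Columns of the authors' own comparisons, which hold fold changes and p-values, were not used.

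A gene was tested where 3 or more libraries reached a value of 10, with limma-trend (limma 3.58.1, R 4.3.3) on log2(value + 1), with Benjamini-Hochberg adjustment over all genes. For G-K562 compared to B-K562 cells, all 9 libraries were fitted together, with B-K562 values rescaled by a factor of 1.02, the mean ratio of the V-K562 libraries between the tables. Peak intervals were merged where they overlapped into 85549 regions (mean 425.9 bp), scaled by a trimmed mean and tested likewise where at least 3 of 6 libraries had a peak. Printed pileups are as deposited and differences are after scaling. Regions were assigned to genes within 5 kb. The fits were tested on simulated data. Members called in at least 1 RNA-seq comparison are given with all values, regions by the 12 largest called differences and those over the start of these members, and other guidance genes by the 10 largest, unless said otherwise. The alternatives were other pseudocounts, filters, scalings, floors, windows and peak thresholds, the replicate number as a block, and each library left out. After the data were seen, a fit that left out each library but kept the genes tested was added. Tables were handled in Python 3.11.15 with pandas 2.3.3.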

Additional observations from a re-analysis of the deposited data

Results flagged for a closer look

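The change from V-K562 cells differed in sign between the lines for SLIT2 and SEMA3F, each past 2-fold in both. Both genes were picked out for these opposite signs, so their difference between the lines, taken from the same libraries, is a description and not a further test. SLIT2 rose by 1.86 in B-K562 and had a difference of -5.74 in G-K562 cells, so that G-K562 minus B-K562 was -7.60 (standard error 0.40). SEMA3F had a difference of -1.91 in B-K562 and of 1.08 in G-K562 cells, so that G-K562 minus B-K562 was 2.997 (standard error 0.13). The ligand SLIT2 was higher in all 3 B-K562 libraries, and SEMA3F higher in all 3 G-K562 libraries, than in every library of the other line.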

How the results depend on the processing

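The named genes and regions gave 1967 values under the alternatives. Of these, 1913 kept their direction and side of the thresholds, 23 lost and 31 gained a call, and none of the called ones changed sign. With 10 or more in every library, 9 guidance genes fell in B-K562 compared to V-K562 cells, 4 fell in G-K562 compared to V-K562 cells and 2 fell between the BASP1 lines. When each library was left out in turn, 2 to 3 rose and 11 to 16 fell in B-K562 compared to V-K562 cells, 7 to 8 rose and 4 to 10 fell in G-K562 compared to V-K562 cells, and 15 to 16 rose and 4 to 5 fell between the BASP1 lines. With the tested genes kept, a choice made after seeing the data, the ranges were 3 and 13 to 17, 7 to 8 and 8 to 10, and 15 to 16 and 5.

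Region counts moved more. Requiring a peak in every library gave 1 opened and 0 closed region in B-K562 compared to V-K562 cells, 1 and 8 in G-K562 compared to V-K562 cells, and 2 and 4 between the BASP1 lines. Summits of at least 30 tags alone gave 0 and 1, 4 and 9, and 6 and 8, and regions within 5 kb of the start gave 2 and 2, 6 and 2, and 6 and 1. The floor at the lowest pileup, 10 tags, gave 18, 31 and 27 closed. Equal tags without further scaling gave 24 opened and 10 closed in G-K562 compared to V-K562 cells. Fewer regions were tested under the first 3 of these, and for the floor and the scaling the cause was not tested. No shares over all regions are given for these settings, so the counts describe the settings and not the guidance genes. Leaving out each library, with the filter on peaks applied again, gave 0 to 3 opened and 2 to 9 closed, 7 to 15 and 12 to 20, and 5 to 16 and 8 to 17. In B-K562 compared to V-K562 cells the opened count was 0 without B-K562 replicate 3, 1 without B-K562 replicate 2 and 2 without V-K562 replicate 3, and the closed count was 2 without V-K562 replicate 1 or 3 and 4 without V-K562 replicate 2. In G-K562 compared to V-K562 cells 7 opened without any G-K562 library and 12 closed without V-K562 replicate 2. Between the BASP1 lines 6, 7 and 5 opened without G-K562 replicates 1, 2 and 3, and 8, 10 and 10 closed without B-K562 replicates 1, 2 and 3.

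The main fits did not pair the samples by replicate number. For RNA-seq, deviations from the group means of the same number correlated at 0.31, 0.03 and 0.19 between B-K562 and V-K562 libraries. They correlated at -0.30, -0.23 and 0.42 between G-K562 and V-K562 and at -0.13, -0.09 and 0.16 between the BASP1 lines. For ATAC-seq they were positive but small, at 0.12, 0.03 and 0.03, then 0.09, 0.04 and 0.03, then 0.11, 0.05 and 0.007. These values did not settle whether the replicates were paired. With the replicate number as a block, 3 guidance genes rose and 15 fell, 7 rose and 8 fell, and 15 rose and 5 fell in the same order of comparisons, and 3 regions opened and 8 closed, 15 and 19, and 17 and 16.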
